A study of Mus musculus with 33 samples.

Results

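Stress and immediate early genes code for the fast transcriptional response to a stimulus and for the proteins that cope with heat, misfolded protein and ER stress, some of them made at all times. The list holds 41 named genes of the 32285 genes in the expression tables, and all 41 were found. They were taken by name and read in 6 role groups. The 4 immediate early groups hold 24 genes: the AP-1 subunits (Fos, Fosb, Fosl2, Jun, Junb and Jund), the EGR zinc finger factors (Egr1, Egr2 and Egr3), other early transcription factors (Nr4a2, Nr4a3, Atf3, Klf2 and Klf6) and genes of feedback and growth control (Zfp36, Zfp36l1, Dusp1, Dusp2, Btg1, Btg2, Ier2, Ier3, Ier5 and Gadd45b). The heat shock group holds 11 chaperone genes (Hspa1a, Hspa1b, Hspa8, Hsp90aa1, Hsp90ab1, Hsph1, Dnajb1, Dnaja1, Hspe1, Hspd1 and Hspb1). The last group holds 6 genes of endoplasmic reticulum (ER) stress and the integrated stress response (Hspa5, Xbp1, Atf4, Ddit3, Ppp1r15a and Ddit4).

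Immediate early genes are transcribed without new protein synthesis, when signalling kinases activate transcription factors that already sit in the cell. Their products include transcription factors and the brakes on the same signal, such as the phosphatase DUSP1 and the mRNA-destabilising protein ZFP36. Heat shock genes follow a different route: misfolded protein frees the factor HSF1, which binds heat shock elements in their promoters. ER stress genes answer unfolded protein in the secretory pathway or slowed translation. All of these programmes can also start while a tissue is minced and digested to free its cells.

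The study marked cells near tumour cells in mice with a labelling method called SAMENT, which puts biotin on neighbouring cells, and sorted each tissue into a biotin positive and a biotin negative fraction for single-cell RNA sequencing. In the first experiment, labelled intracardiac injection, bone, brain, liver and lung were each sorted into both fractions with 4 samples per fraction, which gave 32 samples read with a 3′ kit. In the second, labelled iia, bone alone was taken, and 6 positive and 6 negative samples were tagged, pooled in 1 library and read with a 5′ kit; the labels do not spell out iia. Every group shared the labelling of about 10 h and a digestion with collagenase A for 45 min at 37 °C. The labels give no mouse strain, injected cell line, age or untreated animal, so that every sample comes from an injected and labelled mouse, and a level present in the tissue cannot be told apart from a level gained during digestion. Nothing says that samples came from separate animals, so the p-values measure the spread between these samples, which may be technical. The 2 kits read different ends of the transcript, and no level was compared between the experiments.

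After filtering, 55366 of 57065 barcodes remained in the intracardiac samples, with 94 to 3505 cells and 482617 to 44834665 UMIs per sample, and 22362 of 26666 in the iia library, with 249 to 3480 cells per tagged sample. A UMI is a tag that counts 1 captured RNA molecule. Levels are given as CPM, the UMIs of a gene per 1000000 UMIs summed over the cells of a class in a sample. The sample with 94 cells was biotin positive liver replicate 4. The 4 replicate numbers of the intracardiac experiment marked 4 multiplexing pools: the 112 pairs of libraries with the same number shared no cell barcode, whereas the 384 pairs with different numbers shared 341. These pools differed in the members' levels, as described below, so each test was also run with the pool as a block. Cell classes came from clusters named by marker genes, and the members were left out of the clustering.

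Promoter sequences of 35 members were found in RefSeq (build GRCm38.p6, 250 bases before the start, written 5′ to 3′ on the gene's strand). Among the members, the letters of the heat shock element were found mostly in the heat shock group. The heat shock letters GAANNTTC stood in 6 of the 8 heat shock promoters found, against 7.73% of the 27025 promoters in the table, and also in those of Fosl2 and Jun. The core of the cAMP response element, TGACG on either strand, stood in 18 of 35 against 19.8% of all and was spread over the groups, among them 3 of 6 AP-1, 4 of 8 heat shock and 3 of 6 ER stress promoters. The whole element TGACGTCA, which holds that core on both strands, stood in Dusp1, Btg2 and Ppp1r15a against 1.77% of all. The CArG box, which serum response factor binds, stood in Egr2 and Zfp36 against 1.62% of all, and the ER stress response element stood in Hspa5 against 0.13% of all. The AP-1 letters TGANTCA stood in 3 members against 7.82% of all. A match is a description of the letters and not of binding.

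The 2 inducible HSP70 genes, Hspa1a (chr17:34972157-34972406, minus strand) and Hspa1b (chr17:34959239-34959488, minus strand), are shown because they are neighbouring near-copies whose reads cannot be told apart with certainty. Their promoters differed at 3 positions and were 98.8% identical. Capitals mark the heat shock element, which begins at base -104 from the start in both.
Hspa1a: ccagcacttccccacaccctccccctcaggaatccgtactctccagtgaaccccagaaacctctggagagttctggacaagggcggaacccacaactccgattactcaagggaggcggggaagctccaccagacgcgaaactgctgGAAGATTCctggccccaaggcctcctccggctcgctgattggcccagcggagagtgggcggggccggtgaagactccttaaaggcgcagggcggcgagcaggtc
Hspa1b: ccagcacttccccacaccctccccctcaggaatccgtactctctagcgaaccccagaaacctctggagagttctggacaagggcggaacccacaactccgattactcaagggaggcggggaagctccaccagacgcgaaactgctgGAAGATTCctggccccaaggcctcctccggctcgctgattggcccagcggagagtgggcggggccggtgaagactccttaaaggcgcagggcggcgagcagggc
For the mitochondrial chaperonin gene Hspe1, 30 bases (chr1:55088051-55088080, plus strand) show 2 overlapping matches to an element of 3 alternating units. The first, in capitals, is read on the other strand and begins at base -89. The other is read on the gene's strand and runs on past the capitals. This form was found in 0.514% of all promoters and, among the members, in Hspe1 and Hspd1.
Hspe1: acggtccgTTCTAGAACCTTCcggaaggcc

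Fos, Dusp1 and Zfp36 are shown because these immediate early genes changed together between tissues. Capitals mark TGACG in Fos (chr12:85473640-85473889, plus strand; bases -129 and -66), TGACG and TGACGTCA in Dusp1 (chr17:26508473-26508722, minus strand; bases -191, -143 and -140, the last pair overlapping) and the CArG box in Zfp36 (chr7:28379229-28379478, minus strand; base -58).
Fos: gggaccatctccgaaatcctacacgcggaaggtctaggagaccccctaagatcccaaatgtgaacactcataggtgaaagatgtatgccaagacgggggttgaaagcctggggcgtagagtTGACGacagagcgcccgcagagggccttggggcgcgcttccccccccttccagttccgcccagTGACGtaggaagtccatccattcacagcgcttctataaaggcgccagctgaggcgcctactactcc
Dusp1: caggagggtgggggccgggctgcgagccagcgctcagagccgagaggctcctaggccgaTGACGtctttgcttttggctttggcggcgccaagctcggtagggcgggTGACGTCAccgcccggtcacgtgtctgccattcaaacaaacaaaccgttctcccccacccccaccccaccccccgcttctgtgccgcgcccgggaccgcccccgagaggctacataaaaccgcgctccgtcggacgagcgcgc
Zfp36: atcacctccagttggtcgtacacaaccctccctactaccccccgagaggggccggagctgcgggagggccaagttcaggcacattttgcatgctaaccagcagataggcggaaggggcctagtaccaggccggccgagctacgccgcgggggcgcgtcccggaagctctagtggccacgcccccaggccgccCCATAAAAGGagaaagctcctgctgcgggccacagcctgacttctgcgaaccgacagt
Hspa5, which codes for the ER chaperone BiP, is shown for its ER stress response element in capitals (chr2:34771840-34772089, plus strand; base -65). It was the member of its group that rose over all cells of biotin positive iia bone.
Hspa5: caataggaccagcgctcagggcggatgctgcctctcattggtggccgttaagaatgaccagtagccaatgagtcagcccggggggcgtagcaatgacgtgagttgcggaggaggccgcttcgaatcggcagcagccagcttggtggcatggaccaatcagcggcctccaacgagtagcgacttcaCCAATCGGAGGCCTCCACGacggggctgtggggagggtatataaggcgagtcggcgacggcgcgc

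Across the 13 cell classes of the intracardiac experiment, immediate early genes stood high in microglia, macrophages and neutrophils and low in granulocyte precursors, and 6 of the 11 heat shock genes had their lowest mean in neutrophils. Of those 6, Hsp90aa1, Hsp90ab1 and Hspd1 had their highest in granulocyte precursors. These are levels of classes with different numbers of samples (at least 20 cells each), given without a test. Fos, the AP-1 subunit most used as an activity marker, was highest in microglia, with a mean of 4924 ± 911 CPM (SD, n = 3), and lowest in granulocyte precursors with 233 ± 225 CPM (n = 9). Egr1, the zinc finger factor induced by growth factor signals, was at 3442 ± 502 CPM in microglia, at 655 ± 596 CPM in neutrophils (n = 32) and at 9.01 ± 7.74 CPM in the precursors. Microglia came only from brain, and their 3 samples did not overlap the precursor samples for either gene: Fos lay between 3906 and 5661 CPM in microglia and between 45.7 and 717.4 CPM in precursors. Microglia were also the highest class for Jun, Junb, Jund, Fosb, Egr3, Atf3, Klf6, Zfp36, Zfp36l1, Dusp1, Btg2, Ier2 and Ier5. In macrophages, the second class for Fos, the samples spread from 443 to 6511 CPM.

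Several members had a class of their own. Dusp2, a nuclear phosphatase of lymphocytes, was highest in NK cells with 703.6 ± 356 CPM (n = 13), followed by T cells with 356.6 ± 203 CPM (n = 25), and their ranges overlapped. Btg1, a brake on proliferation, stood at 1746 ± 501 CPM in T cells and 1586 ± 417 CPM in B cells, which did not differ beyond their spread. Klf2, which keeps endothelium and lymphocytes quiescent, averaged 1494 CPM in endothelial cells with an SD of 1274 CPM over 9 samples, and microglia at 1483 ± 613 CPM lay within their range. Egr2 was highest in alveolar macrophages at 90.4 ± 39.4 CPM (n = 5), and microglia at 59.2 ± 27.8 CPM overlapped them. Gadd45b, a stress sensor of the p38 pathway, and Fosl2 were highest in neutrophils, at 377 ± 364 and 283 ± 156 CPM.

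The constitutive chaperone genes Hspa8 and Hsp90ab1 were lowest in neutrophils. Hspa8, the constitutive HSP70, was at 256 ± 54.5 CPM in neutrophils and at 1825 ± 413 CPM in conventional dendritic cells (n = 18), with no overlap between the 2 ranges (157.4 to 370.9 and 1150 to 2396 CPM). Hsp90ab1, the constitutive HSP90, was at 126 ± 45.6 CPM in neutrophils against 1759 ± 370 CPM in granulocyte precursors, so that the level in maturing and mature cells of the same lineage did not overlap either. Hspe1, the co-chaperonin whose element is printed above, was at 6.38 ± 3.36 CPM in neutrophils and at 425.3 ± 44.7 CPM in plasmacytoid dendritic cells (n = 7). The inducible Hspa1a was highest in conventional dendritic cells at 258 ± 250 CPM and in endothelial cells at 248 CPM with an SD of 472 CPM, and in both the SD was near or above the mean. Hspb1, the small heat shock protein HSP27, was at 398.5 ± 491 CPM in endothelial cells and at 18.5 CPM or less on average in every other class. Hspa5 and Xbp1, which drive secretory capacity, were highest in plasma cells at 1400 ± 412 and 782 ± 192 CPM (n = 4), and Ddit4 was highest in endothelial cells at 124 ± 66.2 CPM.

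**Figure D1:**
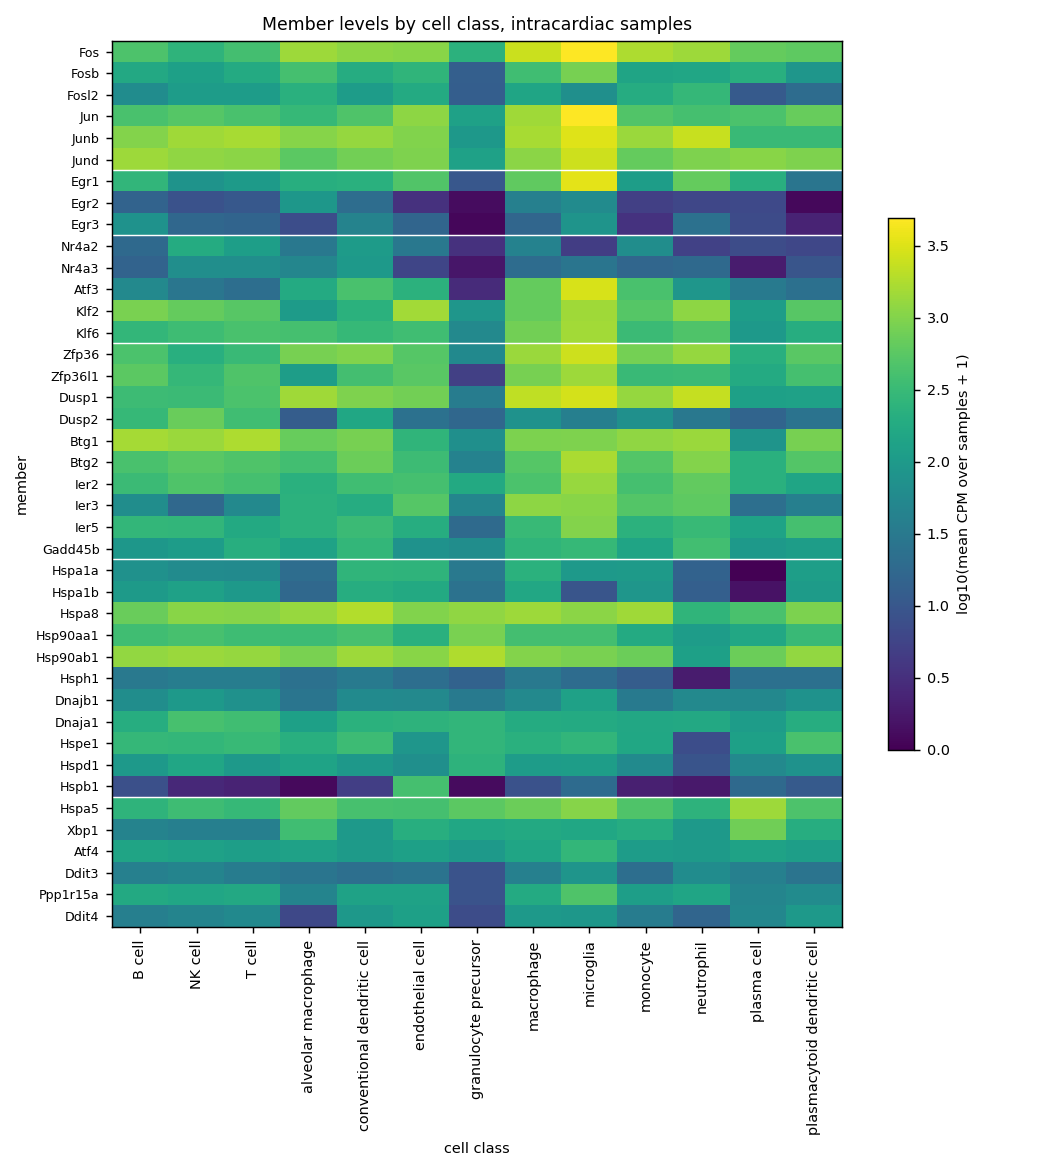
Mean level of each of the 41 members (rows, by role group) in the 13 cell classes of the intracardiac experiment (columns), as log10 of CPM plus 1, averaged over samples with at least 20 cells of the class. Fos runs from 4924 CPM in microglia to 233 CPM in granulocyte precursors, and Hspe1 from 425.3 CPM in plasmacytoid dendritic cells to 6.38 CPM in neutrophils.

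In the iia bone library, the macrophage class took the place of microglia. Its biotin negative samples had low sums of macrophage markers and the higher Fos levels, as given below. Fos was at 713 ± 328 CPM in macrophages (n = 9) and at 22.1 ± 11.3 CPM in granulocyte precursors (n = 12), and Dusp1, Zfp36, Junb, Ier3 and both inducible HSP70 genes were also highest in macrophages. Jun and Egr1 were highest in basophils or mast cells, at 1181 ± 338 and 346 ± 120 CPM (n = 4). Fibroblasts or stromal cells, seen in 3 samples, were highest for Hsp90ab1, Hspe1, Hspd1 and Hsph1, the last at 266 ± 140 CPM. Neutrophils were again the lowest class for Hspa8, at 205 ± 17.0 CPM (n = 12).

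Between tissues, the biotin negative neutrophils had the most members called of the 4 classes tested: immediate early genes were low in bone, intermediate in brain and high in liver and lung. By an edgeR quasi-likelihood F test over the 4 tissues with Benjamini-Hochberg adjustment at 0.05, 29 of 39 members tested changed, against 20.2% of 8073 genes. The immediate early groups gave 23 of 24 (all but Ier2), the heat shock group 3 of 9 (Dnaja1, Dnajb1 and Hsp90aa1) and the ER stress group 3 of 6 (Hspa5, Ppp1r15a and Ddit3). With the pool as a block, 36 of 39 changed, against 38.0% of all genes.

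The AP-1 sum, the CPM of the 6 subunits added, was 2325, 1440, 835 and 1527 in the 4 bone samples (replicates 1 to 4). The lung samples stood at 6460, 8116, 5487 and 10977, those of liver at 6393, 10196, 4995 and 9236, and those of brain at 3328, 5356, 2689 and 2955. Every bone sample lay below every sample of the other 3 tissues, brain overlapped liver only through its replicate 2, and liver and lung overlapped throughout. The EGR sum averaged 855 ± 575 CPM in lung, 1079 ± 699 in liver, 209 ± 113 in brain and 112 ± 38.6 in bone (SD, n = 4 each). The feedback and growth control sum averaged 11248 ± 2085 CPM in lung, 10870 ± 2761 in liver, 4864 ± 1763 in brain and 2563 ± 693 in bone. These sums weigh abundant genes most.

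Ppp1r15a, which codes for GADD34 and ends the integrated stress response, had the largest ratio between tissue means among the members that changed. It was at 32.6, 11.9, 9.19 and 12.3 CPM in bone, at 22.3, 94.4, 92.4 and 31.4 CPM in brain, at 135, 241, 112 and 121 CPM in liver and at 399.9, 264.5, 190.4 and 245.1 CPM in lung (edgeR adjusted p = 0.0002998). Bone and brain overlapped, and all 8 samples of liver and lung stood above both. Atf3, a stress-induced factor of the ATF family, rose from 9.87 ± 9.09 CPM in bone to 37.2 ± 7.91 in brain, 90.8 ± 16.9 in liver and 151 ± 76.6 in lung (edgeR adjusted p = 0.0002285). Its bone samples (23.3, 6.60, 6.41 and 3.19 CPM) lay below all others, and brain lay below liver and lung without overlap. Gadd45b averaged 551 ± 336 CPM in lung, 406 ± 226 in liver, 114 ± 48.7 in brain and 52.4 ± 29.1 in bone (edgeR adjusted p = 0.0009694), and its liver and lung samples did not overlap those of bone and brain.

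Egr1 was at 116, 84.5, 54.5 and 146 CPM in bone, at 97.8, 347.2, 142.6 and 214.1 CPM in brain, at 718, 1948, 368 and 1154 CPM in liver and at 296, 979.9, 441.6 and 1551 CPM in lung (edgeR adjusted p = 0.002282). All liver samples exceeded all bone and brain samples, and lung replicate 1 fell within the range of brain. Fosb averaged 27.2 ± 22.8 CPM in bone and 353 ± 85.7 CPM in lung (edgeR adjusted p = 0.007149), and Dusp2 averaged 4.29 ± 1.92 CPM in bone and 65.8 ± 45.9 CPM in lung (edgeR adjusted p = 0.001634). For both, bone and lung did not overlap.

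The heat shock group moved less. Its sum in neutrophils was 1392, 767, 730 and 975 CPM in lung, 845, 783, 496 and 681 CPM in liver, 907, 643, 569 and 640 CPM in brain, and 856, 484, 465 and 557 CPM in bone. Replicate 1 was the highest sample in each of the 4 tissues, and the ranges of all 4 tissues overlapped. The ER stress sum averaged 949 ± 123 CPM in lung, 729 ± 159 in liver, 434 ± 87.4 in brain and 346 ± 50.4 in bone, and bone did not overlap liver or lung.

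**Figure D2:**
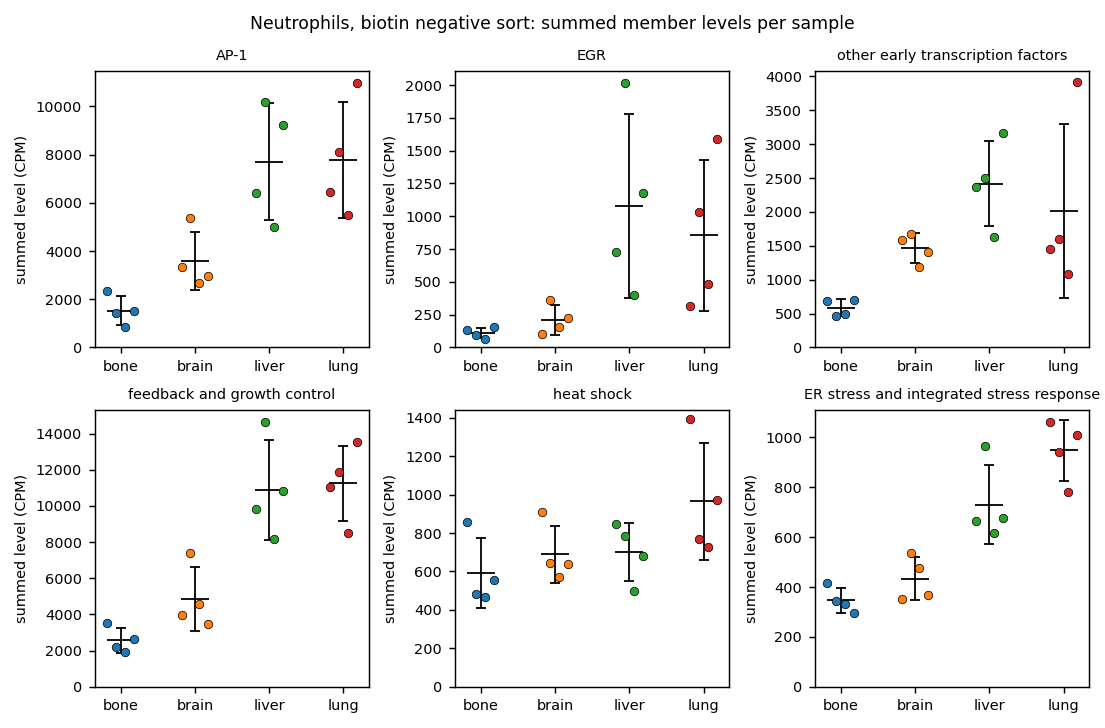
Sums of the members of each role group (CPM, linear axis from 0) in biotin negative neutrophils of bone, brain, liver and lung; points are the 4 samples and bars show the mean ± SD. The AP-1 sum averages 1532 CPM in bone and 7760 CPM in lung, while the heat shock sum averages 591 CPM in bone and 966 CPM in lung.

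Genes of the same programmes outside the list moved as follows in these neutrophils, each list being chosen by function. Of the other early response genes, 12 of 23 tested changed by the edgeR F test, led by Maff, a small MAF factor, with a ratio of 13.3 between the highest and lowest tissue mean, and by Csrnp1 with 9.53 and Nfkbiz with 7.09. Of the other heat shock and chaperone genes 5 of 23 changed, with Chordc1, an HSP90 co-chaperone, at a ratio of 4.88. Of the other ER stress and integrated stress response genes 10 of 22 changed, with the cystine transporter gene Slc7a11 at 3.79 and Sesn2 at 2.55.

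The make-up of the neutrophils changed between the tissues as well. Cluster 11, led by Acod1, Il1b and Cxcl2, held 2.228% of the bone neutrophils, 19.15% of those in brain, 37.69% of those in liver and 47.24% of those in lung. Cluster 18, led by Ccrl2, Ptgs2 and Hcar2 and with the member Gadd45b among its leading genes, held 1.095%, 3.414%, 14.56% and 24.73% in the same order. Clusters 13 and 14, the second led by the granule genes Ltf, Ngp and Camp, held 34.42% and 34.70% in bone and 1.139% and 0.751% in lung. All 18 neutrophil markers were detected, and their summed level was 415130 to 524610 CPM in bone and 248780 to 367550 CPM in lung. The granulocyte precursor list was at 3134 to 4698 CPM in bone and 684 to 1318 CPM in lung.

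Within single neutrophil clusters, which hold fewer cells, fewer members were called between tissues. In cluster 11 alone, 0 of 34 members tested changed by edgeR, against 0.0509% of 3929 genes, with 11 members and 176 genes at an unadjusted p under 0.05; with the pool as a block 10 changed, against 1.91%: Nr4a3, Jun, Zfp36, Ppp1r15a, Klf2, Ier2, Junb, Dusp1, Ier3 and Egr1. Dusp1 in cluster 11 averaged 3535 ± 1337 CPM in lung, 5353 ± 1716 in liver, 3211 ± 1219 in brain and 2161 ± 844 in bone, so that bone stayed lowest and the ranges overlapped. Ppp1r15a in cluster 11 averaged 135 ± 61.5 CPM in bone and 257 ± 44.4 CPM in lung. In cluster 12 alone, led by Stfa2 and Retnlg, Hspa5 and Ppp1r15a changed of 31 members tested, against 0.182% of genes, and 19 changed with the block, against 4.79%. Without cluster 18, 26 of 38 members changed, against 15.2% of genes.

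In the other classes of the biotin negative sort bone was also low for many members, least so in B cells, and fewer members passed. Of the members with a mean of at least 10 CPM, bone had the lowest tissue mean for 32 of 35 in neutrophils, 30 of 38 in monocytes, 33 of 39 in T cells and 26 of 40 in B cells. Over all genes at that level, bone was lowest for 41.7% in neutrophils, 14.9% in monocytes, 32.3% in T cells and 19.9% in B cells. Complete separation was rarer: every bone sample lay below all others for 7 members in neutrophils, 2 in monocytes, 1 in T cells and 1 in B cells, against 43 of 4859, 4 of 6825, 13 of 7400 and 1 of 7341 genes. Within pools, the immediate early sum was lowest in bone in 4 of 4 pools in neutrophils and monocytes and in 3 of 4 in T cells and B cells, and the heat shock sum in 3 of 4 in neutrophils and 4 of 4 in the other 3 classes. B cells split by group: bone had the lowest mean for 9 of 10 heat shock genes but for 2 of 6 AP-1 genes and 2 of 5 other early transcription factors. There the sum of those transcription factors was lowest in bone in 0 of 4 pools and the feedback sum in 2 of 4.

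In monocytes the AP-1 sum was 2079, 2705, 2416 and 2282 CPM in bone and 2899 to 7758 CPM in the other 3 tissues, so that bone lay below every other sample. By edgeR without a block, 0 of 39 members changed between the tissues, against 0.0213% of 9402 genes, with 24 members and 947 genes at an unadjusted p under 0.05; DESeq2 called 13 members and 181 genes, and edgeR with the pool as a block called 25, against 4.06% of genes. Of those 25, 20 were among the 23 immediate early genes tested. Fos was at 615.5, 977.7, 879.9 and 828.5 CPM in bone monocytes and at 811 to 3889 CPM in the other tissues, where liver replicate 1 and lung replicate 1 fell within the bone range.

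T cells and B cells gave 0 of 39 members each by edgeR without the block, against 0.194% and 0.0569% of genes, with 16 and 21 at an unadjusted p under 0.05 (375 of 6178 and 421 of 7028 genes) and 6 and 4 by DESeq2 (71 and 38 genes). With the block, 16 members changed in T cells, against 3.74% of genes, and 17 in B cells, against 2.43%. Junb in T cells was at 541, 695, 1113 and 754 CPM in bone and averaged 1990 ± 475 CPM in lung, 1819 ± 999 in liver and 1754 ± 893 in brain, and liver replicate 1, at 491 CPM, was below all bone samples. The heat shock sum of B cells was 3140, 1663, 2098 and 2616 CPM in bone and 5470, 1939, 2849 and 2716 CPM in brain. Bone was lower than brain in each pool, although the ranges overlapped.

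Between the biotin sorts of the intracardiac tissues, 16 of 18 comparisons called no member in edgeR's quasi-likelihood test without a block. The exceptions were lung as a whole and lung macrophages. In the 16, the share of all genes called was 0% except in brain as a whole (3.06%, with 2.88% higher and 0.181% lower in the positive fraction) and brain macrophages (0.0654%). The number of members at an unadjusted p under 0.05 ran from 0 in bone as a whole, lung neutrophils and lung T cells (983 of 12533, 57 of 6506 and 214 of 5816 genes) to 9 of 37 in bone monocytes (352 of 7614 genes). DESeq2 called 3 of 41 members in brain as a whole, against 1225 of 11064 genes, 1 of 34 in brain T cells, against 2 of 3374 genes, 1 of 38 in liver macrophages, against 153 of 7486 genes, and none in the other 13. Bone macrophages, bone T cells, brain monocytes, brain B cells, liver monocytes and liver T cells had under 3 samples with 20 cells in a fraction and were not tested.

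**Figure D3:**
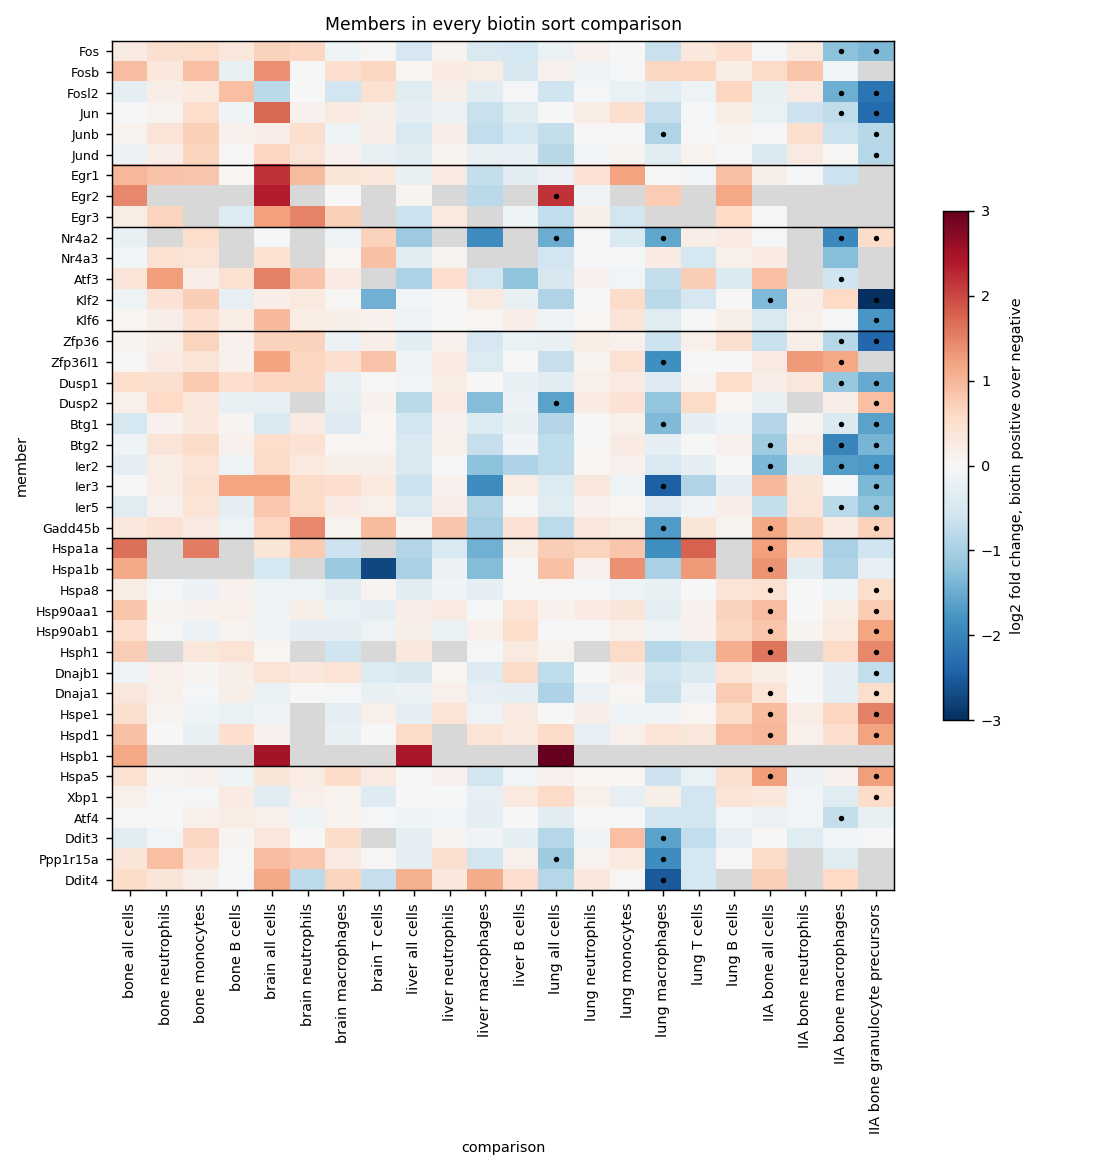
Log2 fold change of biotin positive over biotin negative for the 41 members (rows) in 22 comparisons (columns), from the edgeR fits without a block, with the colour scale ending at 3 in each direction. Black dots mark an adjusted p under 0.05 and grey marks genes not tested; dots are absent from all intracardiac columns except lung as a whole (4) and lung macrophages (9), and in the iia columns 14 lie over all cells, 0 in neutrophils, 13 in macrophages and 27 in granulocyte precursors.

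In brain neutrophils, immediate early genes rose in the biotin positive fraction when samples of a pool were compared with each other. Without the block, 0 of 32 members changed, against 0% of 5079 genes, with 5 members and 59 genes at an unadjusted p under 0.05 and no member by DESeq2. With the pool as a block, 15 of 32 rose in the biotin positive fraction and none fell, against 5.47% of genes called in either direction. They were 14 of the 20 immediate early genes tested, 0 of 6 heat shock genes and, of the ER stress genes, Ppp1r15a. Samples of a pool deviated together in these cells, with correlations of 0.28 to 0.61 in all 4 pairs.

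Gadd45b was at 437.8, 400.8, 341.1 and 174.2 CPM in the positive samples (replicates 1 to 4) and at 93.3, 139, 167 and 56.7 CPM in the negative ones. The groups did not overlap, and the log2 fold change with the block was 1.53 (SE 0.145, edgeR adjusted p = 3.721e-08). In these neutrophils 3 of the members tested did not overlap, against 2.17% of genes. Egr1 was at 210.5, 476, 433 and 589 CPM in the positive samples and at 97.8, 347, 143 and 214 CPM in the negative ones. It was higher in the positive sample of each pool while the groups overlapped, with a blocked change of 1.09 log2 units (SE 0.135, edgeR adjusted p = 2.701e-06). Egr3, a lowly expressed relative of Egr1, had the largest blocked change at 1.90 (SE 0.30, edgeR adjusted p = 6.889e-05), and Ppp1r15a rose by 1.22 (SE 0.173, edgeR adjusted p = 1.806e-05).

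Junb and Dusp1, the members with the most UMIs in brain neutrophils, showed the same pairing. Junb was at 1410, 3019, 1722 and 2648 CPM in the positive samples and at 920.6, 2278, 1151 and 1324 CPM in the negative ones, and Dusp1 at 1476, 3182, 1506 and 1976 against 740.9, 2339, 904.8 and 790.2 CPM. In both genes the groups overlapped and each pool's positive sample was the higher, and the blocked log2 fold changes were 0.52 and 0.75. The other members that rose were Zfp36l1 (0.80), Atf3 (0.79), Zfp36 (0.73), Ier3 (0.69), Fosb (0.69), Fos (0.67), Ier5 (0.62), Btg2 (0.46) and Jund (0.43). All 15 were higher in 4 of 4 pools except Fosb, which was higher in 3.

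The positive side rested on few cells, 132, 20, 62 and 180 in the 4 samples. Leaving out 1 pool at a time gave 13, 16, 13 and 7 members, all higher, against 136 of 5098, 399 of 5079, 260 of 6317 and 30 of 4802 genes, and the count of 7 was without pool 4. The heat shock sum was 909, 739, 538 and 720 CPM in the positive and 907, 643, 569 and 640 CPM in the negative samples, higher in the positive sample in 3 of 4 pools, and no heat shock gene passed. Cluster make-up differed between the fractions: cluster 11 held 32.74% of the positive and 19.15% of the negative cells, cluster 18 held 10.66% and 3.414%, and cluster 14 held 11.93% and 23.72%. The 18 neutrophil markers summed to 364860 to 418030 CPM in the positive and 405000 to 468540 CPM in the negative samples, and the part of this make-up in the result was not tested.

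In brain as a whole the blocked test called 4 members, against 6.89% of genes, and all 4 were higher in the positive sample of every pool: Egr2 (log2 fold change 2.03), Egr1 (1.88), Zfp36l1 (1.27) and Ier3 (1.06). In sums over all cells of a sample, more cells of a type and more RNA per cell cannot be told apart. Macrophage markers stood at 11892 to 50359 CPM in the positive and 793 to 4484 CPM in the negative samples, microglia markers at 1245 to 7177 and 194 to 470 CPM, and neutrophil markers at 21552 to 179230 and 116640 to 291720 CPM, and their part in the result was not tested. Fos was at 1241, 4836, 2757 and 3534 CPM in the positive and 1547, 1770, 1783 and 1047 CPM in the negative samples. Positive replicate 1 was within the negative range, and Fos did not pass either test.

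Smaller blocked counts were found elsewhere in the intracardiac tissues. Lung monocytes gave 4 members, against 3.02% of genes, all higher in the positive fraction: Egr1 (1.69), Dusp2 (0.66), Zfp36l1 (0.51) and Klf2 (0.40). Lung neutrophils gave 3, against 1.15%, also higher: Egr1 (0.55), Ier3 (0.34) and Gadd45b (0.32). Liver neutrophils gave Gadd45b alone (0.84), against 0.111% of genes. In brain T cells Klf2 was lower by 1.43 and Zfp36l1 higher by 0.86 on the log2 scale, over 3 pairs, 2 of 34 members tested where 17 of 3374 genes were called. In bone, no member passed with or without the block in any of the 4 comparisons.

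In lung as a whole, 4 of 41 members differed by edgeR, against 18.3% of 12331 genes (11.5% higher and 6.80% lower), a share below the background. Egr2 rose, at 99.7, 78.5, 27.3 and 24.3 CPM in the positive and 9.59, 13.9, 7.51 and 9.49 CPM in the negative samples, without overlap (log2 fold change 2.17, SE 0.46, edgeR adjusted p = 0.01404). Here 4 of the members tested did not overlap, against 21.6% of genes. Dusp2 fell, from 302.5, 133.5, 214.4 and 107.5 CPM in the negative to 127.7, 56.2, 51.4 and 54.7 CPM in the positive samples; the groups overlapped through positive replicate 1 (log2 fold change -1.61, SE 0.36, edgeR adjusted p = 0.01772). Nr4a2, a nuclear receptor of the early response, fell with a log2 fold change of -1.48 and Ppp1r15a with -1.06. DESeq2 called 8 members, against 3094 of the 12331 genes, and edgeR with the pool as a block called 6, 2 higher and 4 lower, against 2563 genes. Without negative replicate 1, 1 member was called, against 1285 of 12626 genes. Without positive replicate 2, 2 were called, against 1342 of 12579 genes, and without positive replicate 4, 7 were called, against 2381 of 12577 genes.

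Alveolar macrophage markers stood at 6670 to 28971 CPM in the positive and 1904 to 3698 CPM in the negative lung samples, and NK cell markers at 87 to 594 against 289 to 5363 CPM. Among the classes, Egr2 was highest in alveolar macrophages and Dusp2 in NK cells, as given above, and Nr4a2 was highest in NK cells at 189 ± 149 CPM. The part of the cell make-up in the lung result was not tested.

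In lung macrophages, pooled with the alveolar ones, 9 of 39 members fell in the biotin positive fraction and none rose, against 12.7% of 8299 genes called, 6.45% higher and 6.29% lower. They were 4 of 10 feedback genes, 3 of 6 ER stress genes, Junb and Nr4a2, and none of the 10 heat shock genes. The median log2 fold change of the members was -0.62, against 0.03 over all genes tested. Without negative replicate 4 it was -0.30, with 6 members called, against 122 of 9278 genes.

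Ier3, an NF-κB target that limits cell death, was at 583.7, 515.2, 261.9 and 862 CPM in the positive samples and at 1937, 1624, 2709 and 3579 CPM in the negative ones (log2 fold change -2.45, SE 0.42, edgeR adjusted p = 0.01176). Ddit4, an inhibitor of mTORC1 induced by stress, was at 22.8, 16.4, 7.096 and 23.8 CPM against 52.9, 71.5, 76.4 and 118.2 CPM (log2 fold change -2.52, SE 0.41, edgeR adjusted p = 0.009237). Ppp1r15a was at 59.5, 78.1, 42.6 and 66.9 CPM against 150.3, 186.9, 288.7 and 130.1 CPM (log2 fold change -1.85, SE 0.27, edgeR adjusted p = 0.00648). The 2 fractions did not overlap for any of these 3 genes. Gadd45b (-1.69) and Ddit3 (-1.60) separated the fractions as well, whereas for Zfp36l1 (-1.84) positive replicate 1, at 484 CPM, stood above negative replicate 2, at 450 CPM. In all, 8 of the members tested did not overlap, against 22.4% of 8299 genes.

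The fractions held different macrophages. Cluster 28, led by the alveolar genes Plet1 and Ear1, made up 76.35% of the positive and 9.886% of the negative cells, and cluster 4, with Pf4 and Spp1 among its leading genes, 17.08% and 79.09%. The 13 alveolar macrophage markers summed to 13821 to 30067 CPM in the positive and 2539 to 11085 CPM in the negative samples. Within cluster 4 alone, edgeR called 0 of 39 members, against 0% of 5634 genes, with 10 members and 738 genes at an unadjusted p under 0.05, and with the block 7, all lower, against 6.85%. There Ier3 averaged 1637 ± 94.2 CPM in the positive and 2785 ± 675 CPM in the negative samples, a blocked change of -0.81 log2 units (SE 0.15, edgeR adjusted p = 0.009085). Over all lung macrophages the blocked test called 18 members, 17 lower and Egr2 higher, against 22.1% of genes. Negative samples held 39, 79, 35 and 110 cells.

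Outside the list, 6 of 23 other early response genes tested differed in lung macrophages, 2 higher and 4 lower: Sgk1 rose by 1.71 on the log2 scale, and Fosl1, an AP-1 subunit, had a log2 fold change of -1.62. None of 25 other heat shock genes passed, with 3 at an unadjusted p under 0.05. Of 22 other ER stress genes 3 passed, all lower, among them Slc7a11 (-1.51) and Nupr1 (-1.32).

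In iia bone, heat shock genes rose in the biotin positive fraction as a whole, and 14 of 17 immediate early genes tested in granulocyte precursors and 11 of 22 in macrophages fell. Over all cells, edgeR called 14 of 39 members, 11 higher and 3 lower, against 50.2% of 12625 genes, 27.0% called higher. Of the 10 heat shock genes tested 9 rose, and the group's median log2 fold change was 0.94, against 0.08 over all genes. In the immediate early groups 4 of 23 passed: Ier2, Klf2 and Btg2 fell and Gadd45b rose.

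The heat shock sum was 4367, 3859, 4975, 3974, 5006 and 4540 CPM in the 6 positive samples and 2339, 2119, 1926, 2184, 2115 and 2297 CPM in the negative ones. Every positive sample lay above every negative one. Gene by gene, 9 of the members tested did not overlap, 8 of them higher, against 30.6% of 12625 genes. Hsph1, the HSP110 exchange factor of HSP70, was at 97.5, 73.7, 120, 47.5, 91.8 and 124 CPM in the positive and 28.6, 25.8, 17.6, 20.4, 37.5 and 24.3 CPM in the negative samples, again without overlap (log2 fold change 1.61, SE 0.25, edgeR adjusted p = 0.0002564). Hspa5 was at 447, 472, 418, 677, 676 and 674 CPM against 165 to 222 CPM (log2 fold change 1.25, SE 0.14, edgeR adjusted p = 3.137e-05), and positive replicates 4, 5 and 6 stood apart from 1, 2 and 3. The sum of Hspa1a and Hspa1b was 321, 281, 461, 110, 304.9 and 306.9 CPM in the positive and 165, 114, 95.7, 37.0, 104 and 104 CPM in the negative samples, with positive replicate 4 inside the negative range.

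Ier2, a small early nuclear protein, went the other way, at 116, 102, 136, 94.4, 91.2 and 109 CPM in the positive and 211 to 257.5 CPM in the negative samples (log2 fold change -1.35, SE 0.10, edgeR adjusted p = 2.784e-06). Klf2 was at 46.1, 108, 128, 59.5, 22.3 and 49.97 CPM in the positive and 120 to 195.5 CPM in the negative samples, overlapping at positive replicate 3 (log2 fold change -1.33, SE 0.35, edgeR adjusted p = 0.006943). The AP-1 sum did not separate the fractions, at 888, 1549, 1957, 452, 535 and 580 CPM in the positive samples, where replicates 2 and 3 were high, and 737 to 1176 CPM in the negative ones.

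Of the other lists, 20 of 28 other heat shock and chaperone genes rose and none fell, with Hmox1, the haem-degrading enzyme, at a log2 fold change of 4.02, Bag3 at 1.23 and Fkbp4 at 1.08. Of 24 other early response genes 3 rose and 6 fell. Of 25 other ER stress genes 13 rose and 3 fell, whereas of the 6 members of that group Hspa5 alone passed. The rises in the ER stress list included Calr (1.72), Hyou1 (1.57) and Sdf2l1 (1.48). Cell make-up differed too. Macrophage markers stood at 857 to 13672 CPM in the positive and 241 to 619 CPM in the negative samples, neutrophil markers at 42108 to 94724 against 219040 to 265820 CPM, and granulocyte precursor markers at 5235 to 28519 against 4815 to 6837 CPM. Neutrophils were the class with the lowest Hspa8 and Hspe1, and the part of the make-up in the result was not tested. The median share of mitochondrial UMIs was 0.988% to 2.54% in the positive and 0.554% to 0.930% in the negative samples, without overlap. Its part was not tested either.

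**Figure D4:**
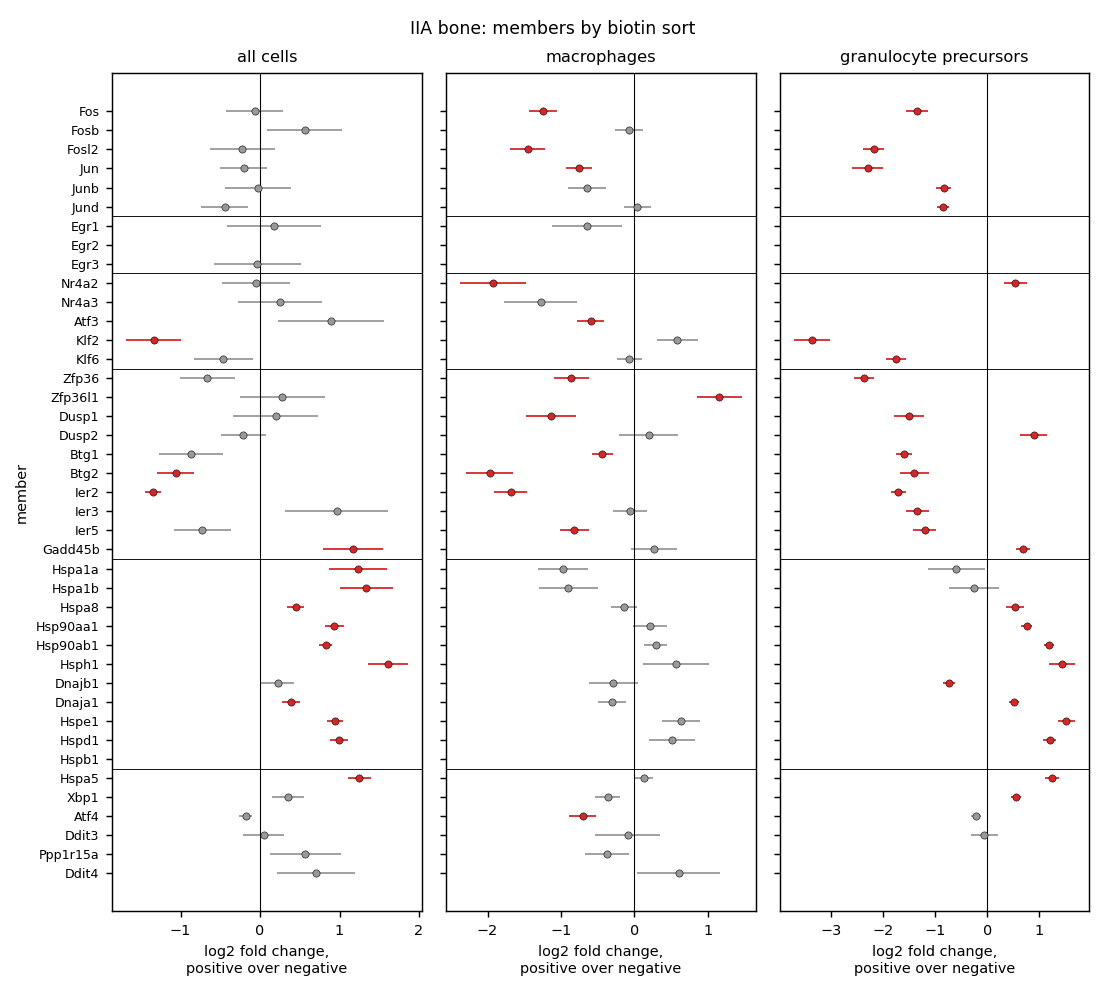
Log2 fold change of biotin positive over biotin negative with its SE for each member in iia bone, over all cells, in macrophages and in granulocyte precursors; red points have an adjusted p under 0.05 in edgeR and grey points do not. Heat shock genes lie to the right over all cells (Hsph1 at 1.61), and Klf2 reaches -3.36 in granulocyte precursors.

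Granulocyte precursors, a comparison added after the data were seen, showed the 2 programmes in opposite directions. EdgeR called 27 of 31 members tested, 12 higher and 15 lower, against 64.1% of 8815 genes, 33.5% higher and 30.6% lower. All 17 immediate early genes tested passed, 14 of them lower, and Nr4a2, Dusp2 and Gadd45b higher. In the heat shock group 7 of 10 rose and Dnajb1 fell, and Hspa5 and Xbp1 rose. The median log2 fold change was -1.40 in the immediate early groups and 0.64 in the heat shock group, against 0.03 over all genes.

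Klf2 was at 6.92, 9.78, 22.2, 8.12, 2.77 and 9.34 CPM in the positive precursors and at 34.0, 39.7, 31.8, 68.9, 46.9 and 60.9 CPM in the negative ones (log2 fold change -3.36, SE 0.35, edgeR adjusted p = 9.277e-08). Zfp36 was at 21.3, 13.04, 23.4, 13.9, 9.83 and 11.9 CPM against 44.9 to 65.1 CPM (log2 fold change -2.36, SE 0.19, edgeR adjusted p = 5.143e-09). Jun was at 9.81 to 19.5 CPM in the positive and 23.5 to 99.4 CPM in the negative samples (log2 fold change -2.30, SE 0.30, edgeR adjusted p = 1.449e-06). None of the 3 overlapped, and positive replicate 3 was the highest positive sample for each. Fosl2 (-2.19), Klf6 (-1.75) and Ier2 (-1.71) also fell without overlap. Among the members tested, 17 did not overlap, against 37.9% of 8815 genes.

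The precursors of the 2 fractions sat in different clusters. Cluster 6, led by the early granule genes Prtn3, Elane and Mpo, held 73.76% of the positive and 6.163% of the negative cells, and cluster 2, led by Fcnb with Mki67 among its leading genes, held 84.99% of the negative cells. Neutrophil markers summed to 34788 to 153490 CPM in the positive and 301530 to 342430 CPM in the negative samples, and precursor markers to 24693 to 34213 against 11815 to 14371 CPM. The part of this difference in maturity markers in the result was not tested. Of the other lists, 14 of 16 early response genes passed, 11 of them lower, led by Trib1 (-3.88) and Nfkbiz (-2.72); 17 of 25 heat shock genes rose and 2 fell, with Hspa9 at 1.40 and Hmox1 at -1.39; and 14 of 19 ER stress genes rose and 3 fell, with Calr at 1.87.

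In iia macrophages, tested in 4 positive and 5 negative samples, 13 of 38 members passed, 12 lower and 1 higher, against 25.2% of 6035 genes, 12.7% lower. The 22 immediate early genes tested gave 11 lower and Zfp36l1 higher, the ER stress group gave Atf4 lower, and the heat shock group gave 0 of 10, with 3 at an unadjusted p under 0.05. Fos was at 485, 301.7, 352 and 459 CPM in positive replicates 1, 2, 3 and 5 and at 1067, 651, 990, 1034 and 1081 CPM in negative replicates 1, 2, 3, 5 and 6 (log2 fold change -1.24, SE 0.19, edgeR adjusted p = 0.0005252). Btg2, an antiproliferative early gene, was at 117, 33.7, 47.4 and 78.0 CPM against 321.4, 198.9, 289, 200.7 and 274.4 CPM (log2 fold change -1.97, SE 0.32, edgeR adjusted p = 0.0007306). Neither gene overlapped.

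Ier2 (-1.68), Nr4a2 (-1.92) and Fosl2 (-1.45) fell as well, without overlap between the fractions. In all, 9 of the members tested did not overlap, against 20.3% of 6035 genes. Zfp36l1 rose, at 64.5, 133, 114 and 131 CPM against 24.7, 85.0, 52.5, 36.9 and 42.2 CPM (log2 fold change 1.16, SE 0.30, edgeR adjusted p = 0.01333), overlapping at positive replicate 1 and negative replicate 2. The sum of Hspa1a and Hspa1b was 1235, 299.6, 765.8 and 925 CPM in the positive and 2045, 787, 1813, 1038 and 2238 CPM in the negative samples. These 2 ranges overlapped.

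All iia macrophages came from a single cluster with Pf4 and Hmox1 among its leading genes. Even so, the macrophage marker list summed to 11830 to 22878 CPM in the positive and 664 to 2778 CPM in the negative samples, where Cd5l, Clec4f, Marco, Vsig4, Lyve1 and Cd163 were at 0. Neutrophil markers were at 2133 to 31162 CPM in the positive and 24794 to 61670 CPM in the negative samples. Negative samples held 41 to 133 cells, and the part of these marker differences was not tested. In iia neutrophils, 0 of 31 members passed by edgeR, against 0.0131% of 7630 genes, with 6 at an unadjusted p under 0.05.

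The effect of biotin was not shown to differ between the 4 intracardiac tissues: the interaction test in edgeR called 0 of 41 members over all cells, against 1.15% of genes, with 3 at an unadjusted p under 0.05, and 0 of 39 in neutrophils, against 0%, with none.

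Pools, compared in edgeR across the 8 tissue and sort groups after the data were seen, differed in 25 of 41 members over all cells, against 38.3% of 13963 genes, and in 33 of 39 in neutrophils, against 48.8% of genes. Over all cells, 9 of the 11 heat shock genes had their highest mean in pool 1, and Hspe1 and Hspd1 had theirs in pool 3. The heat shock sum over all cells had a median of 4161 CPM in pool 1, 2235 in pool 2, 2761 in pool 3 and 2294 in pool 4, over 8 libraries each. For Hspa1a and Hspa1b together the medians were 378, 44.8, 82.4 and 70.2 CPM. Hspa1b was highest in pool 1 in 8 of 8 groups and Hspa1a in 7 of 8. Without pool 2, 12 members were called over all cells, against 2231 of 14072 genes.

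The heat shock sum was also highest in pool 1 within classes, while the order of the other pools varied. Its median was 4468, 2200, 2298 and 2967 CPM by pool in monocytes, 4912, 2589, 3463 and 3463 CPM in T cells, and 890, 753, 558 and 699 CPM in neutrophils. The AP-1 sum had medians of 3417, 5538, 5289 and 6419 CPM by pool over all cells, lowest in pool 1, but of 5409, 7652, 4559 and 7470 CPM in neutrophils, lowest in pool 3. In B cells it was at 3303 CPM in pool 1 and 3290 CPM in pool 2. In neutrophils, Ier2 was highest in pool 4 in 8 of 8 groups, Hspa8 was lowest in pool 3 in 8 of 8, and Zfp36l1 was lowest in pool 1 in 8 of 8. The median share of mitochondrial UMIs was 2.93% in pool 1, 1.12% in pool 2, 1.09% in pool 3 and 1.22% in pool 4, with ranges over libraries of 2.03% to 3.93%, 0.520% to 3.44%, 0.501% to 1.78% and 0.771% to 2.19%. Pools 2 and 4 overlapped pool 1, and pool 3 did not. Its part in the result was not tested. A library that stood apart was biotin positive bone replicate 3, with the highest heat shock sum of all, 5757 CPM, and an AP-1 sum of 462 CPM.

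**Figure D5:**
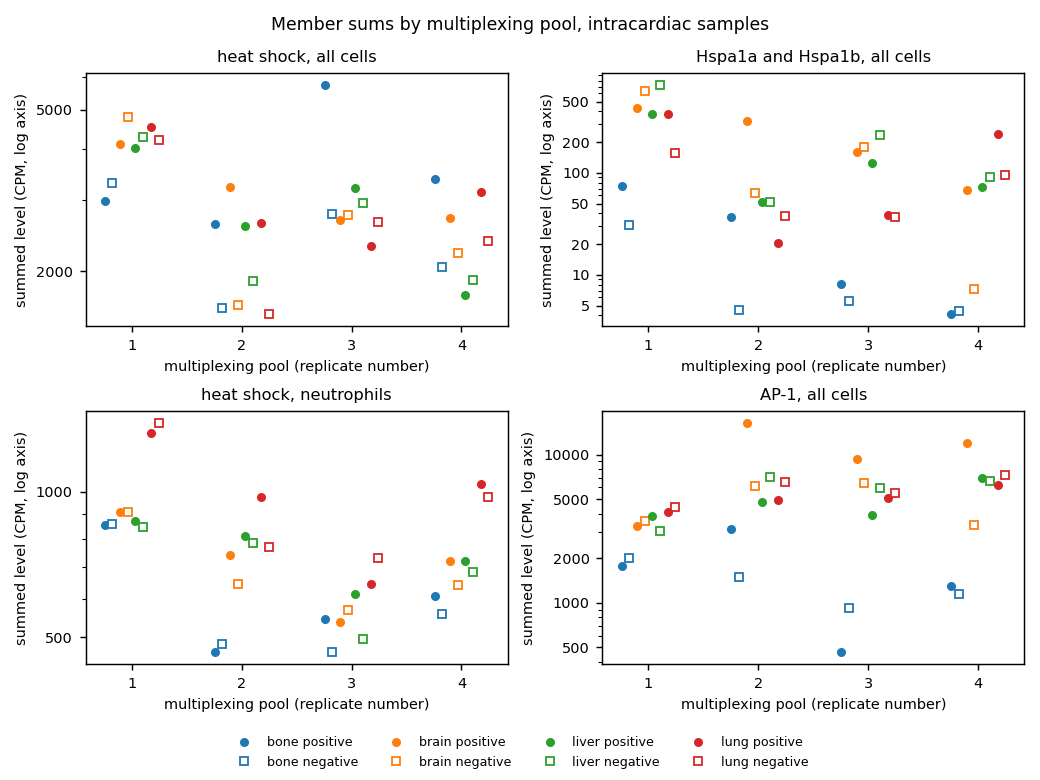
Sums over members in each of the 32 intracardiac libraries by multiplexing pool (CPM, log axis). The heat shock group, the pair Hspa1a and Hspa1b and the AP-1 subunits are shown over all cells, and the heat shock group also in neutrophils. Filled circles are biotin positive, open squares are biotin negative, and colours are tissues. For the pair Hspa1a and Hspa1b, pool 1 has the highest median, 378 CPM against 44.8 to 82.4 CPM. The ranges overlap, from 30.4 to 731 CPM in pool 1 and up to 321 CPM in pool 2.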

How the data were processed

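The authors deposited whole-number UMI counts per gene and cell, made with Cell Ranger, which the file headers give as version 6.1.2 for the 32 intracardiac libraries and 7.1.0 for the iia library. Seurat and the build mm10 are named in the submitters' processing notes without a role. Cells with at least 500 UMIs, 200 genes and at most 15% mitochondrial UMIs were kept. An iia cell went to the tag with at least 10 counts and 3 times the next tag. Tags were matched to the deposited key by number, since the key and the matrix name them differently. Cells were clustered with scanpy 1.11.5 (2000 variable genes, 30 components, 15 neighbours, Leiden resolution 1), leaving out 123 genes, namely the members and 3 related lists, and named from 27 marker lists. The macrophage class joins macrophages, alveolar macrophages and microglia. No doublets were removed; leaving out the 5% of cells with the highest Scrublet score was an alternative.

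Counts were summed per sample and class (at least 20 cells, at least 3 samples a group) and tested with edgeR 4.0.16 in R 4.3.3 (TMM, quasi-likelihood, Benjamini-Hochberg adjustment over all genes tested, adjusted p under 0.05), and with DESeq2 1.42.0 as an alternative. The test was run on simulated counts drawn without a pool effect, so that run does not cover the pool differences of these data. The main fits had no block. Replicate numbers of the intracardiac experiment marked multiplexing pools, as their barcodes show, so blocked values are given beside results whose count they changed; correlations of same-numbered samples within sort comparisons ran from -0.09 to 0.74. Members and lists were chosen with earlier results of these data known. All 41 members are accounted for by role group. For each comparison up to 6 members past the threshold with the largest change are named with their values, or, where fewer than 2 passed, the 2 with the highest mean; up to 3 genes are named per related list. Of 2 gene identifiers with the symbol Ddit3, the one with UMIs was used. Intracardiac groups that could not be tested are named in the text. In iia bone, monocytes, T cells and B cells had under 3 biotin positive samples with enough cells and were not tested.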

Additional observations from a re-analysis of the deposited data

Results flagged for a closer look

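A sample far from the others of its group was found 21 times among the members named above, by Dixon's test at 95%. Chance gives about 1 in 20 groups tested. The groups tested are not counted here, so 21 cannot be read as more than chance gives. Of these, 12 were replicate 1 of an intracardiac group, 10 of them high and 2 low. Those samples belong to pool 1. Members named for differing between pools were among those tested, so the 12 are no separate sign of a pool difference.

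Over all cells, Hspa1a stood out in replicate 1 of bone negative (14.4 CPM, others 2.16 to 3.05) and liver positive (201.8 CPM, others 32.6 to 50.9). Hspa1b stood out in replicate 1 of bone negative (16.01 CPM, others 2.30 to 2.44) and bone positive (36.9 CPM, others 2.55 to 8.17). Hspa8 was at 1676 CPM in bone positive replicate 3, with the others at 854 to 899 CPM. Dusp2 was at 127.7 CPM in lung positive replicate 1 (others 51.4 to 56.2), and Egr1 at 936.6 CPM in liver positive replicate 4 (others 244 to 359.5).

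In neutrophils, replicate 1 of bone negative stood above the rest for Ppp1r15a (32.6 CPM, others 9.19 to 12.3), Atf3 (23.3 CPM, others 3.19 to 6.60) and Hspa1a (7.54 CPM, others 1.13 to 1.45). Atf3 was at 41.5 CPM in bone positive replicate 1 (others 11.2 to 14.98), and Hspa1a at 62.7 CPM in brain positive replicate 1 (others 0 to 9.84). Egr1 was at 409.5 CPM in bone positive replicate 4 (others 86.8 to 115). In brain negative, Dusp1 was at 2339 CPM in replicate 2 (others 741 to 905) and Dusp2 at 29.1 CPM in replicate 3 (others 5.11 to 8.66).

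In brain positive macrophages Fos was at 1322 CPM in replicate 1, far below the others at 5174 to 5695 CPM, and in lung negative monocytes Junb was at 1288 CPM in replicate 1 (others 1880 to 1959). In iia macrophages Fos was at 651 CPM in negative replicate 2 (others 989.5 to 1081). In iia granulocyte precursors, positive replicate 3 was the highest positive sample for Klf2 (22.2 CPM, others 2.77 to 9.78), Fosl2 (13.03 CPM, others 5.43 to 8.12) and Ier2 (108 CPM, others 56.5 to 75.0).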

How the results depend on the processing

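Members called moved by over 1.5 times as follows, and the cause was not tested. With the replicate block: brain as a whole 4, brain neutrophils 15 (13, 16, 13 and 7 without pool 1, 2, 3 and 4), brain T cells 2, liver neutrophils 1, lung neutrophils 3, lung monocytes 4, lung macrophages 18, iia neutrophils 3, and between tissues 25 in monocytes, 16 in T cells and 17 in B cells. With DESeq2: brain as a whole 3, brain T cells 1, liver macrophages 1, lung as a whole 8, and between tissues 13, 6 and 4 in monocytes, T cells and B cells. With no filter on low counts: bone monocytes 1 (15 of 15782 genes), bone B cells 1 (72 of 15196), brain T cells 3 (33 of 14579), liver macrophages 5 (480 of 16722), lung T cells 1 (29 of 16454), iia neutrophils 4 (200 of 18018), and between tissues 16, 22 and 20 in monocytes, T cells and B cells (0.86%, 2.15% and 1.77% of all genes). In lung macrophage cluster 4 alone 0 were called. Between tissues, neutrophil cluster 11 alone gave 0, or 10 with the block, and cluster 12 alone 2, or 19 with the block; these hold fewer cells. The iia numbers share only a number (correlations over all cells of 0.08 to 0.56); there the block gave 18 members over all cells (6197 of 12625 genes), 3 in neutrophils (147 of 7630), 17 in macrophages (1341 of 6035) and 26 in granulocyte precursors (5555 of 8815).

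Leaving out 1 sample gave 0 to 3 members in brain as a whole (3 to 758 genes called), 1 to 7 in lung as a whole (1280 to 2381), 6 to 10 in lung macrophages (122 to 1737), 14 to 18 in iia bone (5592 to 6854), 0 to 1 in iia neutrophils (0 to 48), 9 to 15 in iia macrophages (936 to 1559) and 26 to 28 in iia precursors (5113 to 5882). Between tissues it gave 24 to 31 in neutrophils (1060 to 2198 genes), 0 to 5 in monocytes (0 to 22) and 0 to 2 in T cells and B cells (3 to 22 and 0 to 23), while leaving out 1 whole pool gave 12 to 24 members over all cells and 25 to 29 in neutrophils in the comparison between pools.

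Signs were followed only for the members that the naming rule above picked in each comparison. Among these, signs turned only for members that passed no test in that comparison. The log2 fold changes that turned with no filter were -0.021 (Btg1) and -0.050 (Jund) in bone B cells, -0.061 for Btg1 in brain T cells, 0.0073 for Dusp1 in liver macrophages, -0.027 for Junb in lung neutrophils, -0.059 for Fos in lung monocytes, -0.11 for Junb in lung T cells and -0.027 for Btg1 in iia neutrophils. With the block they were -0.059 for Btg1 in bone B cells, -0.12 (Btg1) and -0.0056 (Junb) in brain T cells, 0.035 for Dusp1 in liver as a whole, -0.057 (Fos) and 0.016 (Junb) in lung monocytes and -0.023 for Junb in lung T cells. Leaving out 1 sample gave -0.050 to 0.36 for Hspa8 in bone as a whole, -0.0068 to 0.58 for Junb in bone neutrophils, -0.070 to 0.28 (Btg1) and -0.17 to 0.22 (Jund) in bone B cells, -0.075 to 0.50 for Junb in brain as a whole, -0.42 to 0.18 (Fos) and -0.014 to 0.56 (Jun) in brain macrophages, -0.11 to 0.23 (Btg1) and -0.029 to 0.48 (Junb) in brain T cells, -0.41 to 0.32 for Dusp1 in liver as a whole and -0.47 to 0.47 in liver macrophages, -0.37 to 0.068 for Btg1 in liver B cells, -0.10 to 0.23 for Junb in lung neutrophils, -0.25 to 0.37 (Fos) and -0.13 to 0.18 (Junb) in lung monocytes, -0.30 to 0.22 for Junb in lung T cells, -0.27 to 0.10 for Btg1 in lung B cells and -0.12 to 0.18 for Btg1 in iia neutrophils.

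The other 324 alternatives kept the count of members within 1.5 times of the value reported. Samples with few cells limit the precision of several comparisons, among them those of brain positive neutrophils, bone positive monocytes, brain positive T cells and lung negative macrophages.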

Other observations

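In the iia bone library, 2 clusters without a class held more of the biotin positive than of the negative cells. Cluster 23, with the members Hspe1 and Hspd1 among its 10 leading genes beside Gria3 and Srm, made up 3.314% of the positive and 0.6009% of the negative cells. Cluster 12, led by Cacnb2, Glis3 and St7, made up 10.39% and 0.2633%. Neither entered a comparison by class, and both were part of the sums over all cells.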
